A study of Mus musculus with 9 samples.

Results

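The 10 genes described here belong to kidney macrophages and their growth factor axis: the ligands Csf1 (ENSMUSG00000014599.11) and Il34 (ENSMUSG00000031750.16), their receptor gene Csf1r (ENSMUSG00000024621.17), the macrophage markers Adgre1 (ENSMUSG00000004730.16) and Cd68 (ENSMUSG00000018774.14), the complement genes C1qa (ENSMUSG00000036887.6), C1qb (ENSMUSG00000036905.9) and C1qc (ENSMUSG00000036896.6), and the antigen-presentation genes Cd74 (ENSMUSG00000024610.16) and H2-Ab1 (ENSMUSG00000073421.7). They were taken by symbol from the 56923 gene identifiers of the count table, and all 10 were found and passed the low-count filter, which left 17036 genes. All libraries were made from kidney RNA of wild-type mice, 3 per group. Sham mice were operated on but had no IR injury, in the label's abbreviation, and their label also gives PBS as treatment. The AKI_PBS mice had acute kidney injury (AKI) and were given PBS, and the AKI_PTPi_mEVs mice had AKI and were given PTPi@mEVs, by the series' design text vesicles from milk that carried siRNA directed at PTP1B, the phosphatase that Ptpn1 encodes. The sources used here give no strain, age, sex or time after injury. No group given empty vesicles or a control siRNA is among these libraries, so vesicle, siRNA and their combination cannot be told apart. The labels do not say whether each library is a separate animal. The p-values therefore cover only the spread among these samples, which may be technical.

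Macrophages that live in the kidney depend on the receptor tyrosine kinase CSF1R, a surface protein of mononuclear phagocytes. It has a pair of ligands, CSF1 and IL-34, which differ in sequence but bind overlapping parts of the receptor; in the kidney both can be made by tubular epithelium. Resident macrophages of the mouse kidney carry F4/80, the product of Adgre1, express complement C1q strongly and present antigen on MHC class II, for which the invariant chain CD74 is the chaperone. CD68 is a glycoprotein of late endosomes and lysosomes that is abundant in phagocytes of most kinds. C1q and class II genes are read in resident macrophages, but class II genes are also read in dendritic cells and B cells.

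Library totals lay between 9467851 and 11389479 counts. Ptpn1 held 80.9 to 98.8 CPM in sham, 123 to 170 CPM in AKI_PBS and 94.0 to 106 CPM in AKI_PTPi_mEVs, where CPM is the count scaled to a common library size by total and TMM factor. Kidney identity was checked on 8 proximal tubule markers, whose summed level was 11435 to 14378 CPM in sham. AKI_PBS replicate 3 stood apart from its group: pairs that included it had a chi-square per gene of 29.8 to 32.3, against 6.16 to 16.3 for the other 7 pairs within a group. A value after ± is the standard error (SE) of a log2 fold change, or an SD where so marked. Each group had n = 3, and a gene is called where edgeR's quasi-likelihood test gave a Benjamini-Hochberg adjusted p under 0.05 over all genes tested. In these bulk samples, fewer cells of a type and less RNA per cell cannot be told apart.

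The 3 comparisons moved the 10 genes in different ways. In AKI_PBS against sham 7 were called, in a comparison that called 55.7% of all genes (27.8% higher and 27.9% lower): Csf1, Il34 and Cd68 rose, Csf1r, Adgre1, Cd74 and H2-Ab1 fell, and no C1q gene was called. In AKI_PTPi_mEVs against AKI_PBS, where 51.1% of all genes were called (25.4% higher and 25.8% lower), 3 were called: Il34 was lower, and Csf1r and Adgre1 were higher. In AKI_PTPi_mEVs against sham, where 13.2% of all genes were called (7.43% higher and 5.79% lower), 6 were called: Csf1, Il34 and Cd68 were higher and Csf1r, Cd74 and H2-Ab1 lower. The groups did not overlap for exactly these called genes, 7, 3 and 6, where 62.1%, 57.9% and 39.2% of all genes had groups that did not overlap. With 10 genes, the share called was above the background in both comparisons with sham and below it between the injured groups, and nothing particular to these genes is read from that. The comparisons share groups, so they are not separate evidence. The background of the last comparison rested on single libraries: from 2252 genes it went to 1184 without sham replicate 1, 938 without sham replicate 2, 1487 without AKI_PTPi_mEVs replicate 1, 878 without AKI_PTPi_mEVs replicate 2 and 3395 without AKI_PBS replicate 3. The number of the 10 genes called in it was 5 or 6 in each of these fits. The median log2 fold change of the 10 genes was -0.25, -0.26 and -0.47 in the 3 comparisons, beside 0.03, -0.03 and -0.01 over all genes tested.

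**Figure D1:**
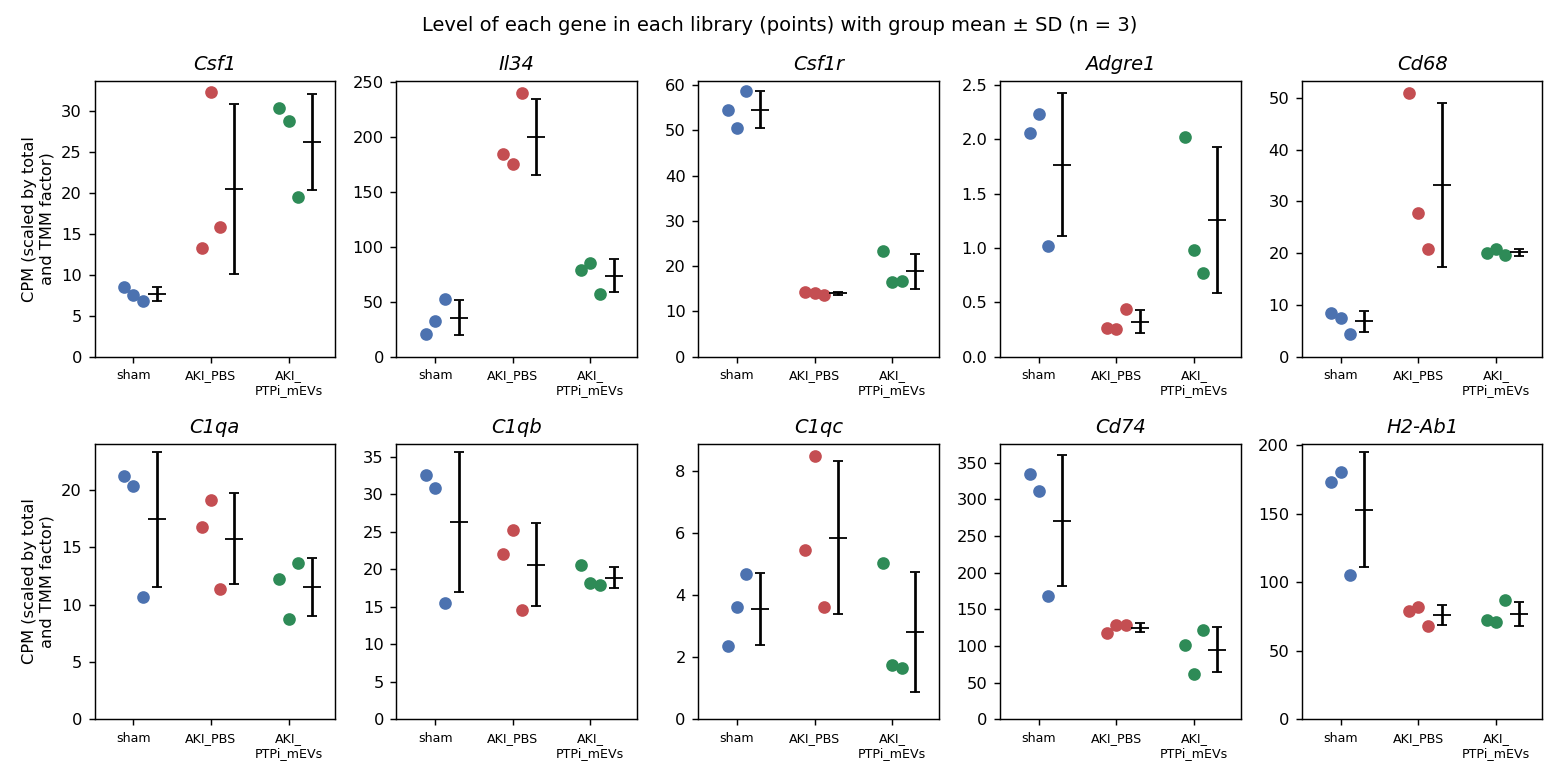
Level of each gene in CPM (linear axes from 0) for every library, coloured by group, with the group mean ± SD (n = 3) to the right of the points. Il34 and Cd68 are higher in all AKI_PBS libraries than in any sham library and Csf1r is lower in all of them, while the C1q genes overlap between groups.

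Il34 encodes interleukin-34, the ligand of CSF1R that tissue cells such as keratinocytes and neurons use to keep resident macrophages. Its level was 21.0, 32.8 and 52.7 CPM in the sham libraries, 184, 175 and 240 CPM in AKI_PBS, and 78.5, 85.6 and 56.9 CPM in AKI_PTPi_mEVs. The groups did not overlap, with AKI_PBS highest and AKI_PTPi_mEVs between it and sham. The increase of Il34 after injury was 5.62-fold, or 2.49 ± 0.28 in log2 units (edgeR adjusted p = 2.03e-05). Its log2 fold change there was larger than that of 97.5% of all genes tested. Relative to AKI_PBS, Il34 in AKI_PTPi_mEVs fell by 63.1% (-1.44 ± 0.27 in log2 units, edgeR adjusted p = 9.86e-04). It remained higher than in sham, 2.08-fold (1.05 ± 0.28, edgeR adjusted p = 0.0269). The last call was lost without sham replicate 1 (0.79), sham replicate 2 (1.003), AKI_PTPi_mEVs replicate 1 (1.01) or AKI_PTPi_mEVs replicate 2 (0.92). Exons of Il34 overlap the opposite-strand gene models Gm15894 and Gm15895 in 1.12% and 3.83% of their length.

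Csf1 encodes macrophage colony-stimulating factor, the ligand of CSF1R that circulates and that injured tubules can also release. Csf1 stood at 8.53, 7.53 and 6.81 CPM in sham, 13.3, 32.4 and 15.8 CPM in AKI_PBS, and 30.5, 28.8 and 19.6 CPM in AKI_PTPi_mEVs. Every library of both injured groups was above every sham library, and the injured groups overlapped because AKI_PBS replicate 2 was higher than all other libraries. Csf1 rose 2.69-fold in AKI_PBS against sham (1.43 ± 0.31, edgeR adjusted p = 0.0017; 0.94 without AKI_PBS replicate 2) and 3.45-fold in AKI_PTPi_mEVs against sham (1.79 ± 0.31, edgeR adjusted p = 0.0033). In the latter comparison its log2 fold change was above that of 98.9% of genes. Between the injured groups it was not called: the fold was 1.28 with a 95% interval of the log2 fold change from -0.27 to 0.98 (edgeR adjusted p = 0.32). Without AKI_PBS replicate 2 that difference was 0.85 and was called (edgeR adjusted p = 0.0105). Whether the response of Csf1 to the treatment differed from that of Il34 was not tested.

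The region before the start of Csf1 is shown because this ligand rose in both injured groups and RefSeq's promoter table (GRCm38.p6) holds it. It is the 250 bases upstream on the minus strand (chr3:107760470-107760719), written 5′ to 3′, and the capitals mark the only match found, to the kappa-B site bound by NF-kB, 154 bases before the start and on the opposite strand. The other motifs searched on both strands were the AP-1 site TGANTCA and the PU.1 core GAGGAA; PU.1 is the master factor of macrophages. Over all 32851 promoter windows of 250 bases in the table, 7.25% held a kappa-B match, 6.75% an AP-1 match and 23.3% a PU.1 core. A match describes the letters only.
Csf1: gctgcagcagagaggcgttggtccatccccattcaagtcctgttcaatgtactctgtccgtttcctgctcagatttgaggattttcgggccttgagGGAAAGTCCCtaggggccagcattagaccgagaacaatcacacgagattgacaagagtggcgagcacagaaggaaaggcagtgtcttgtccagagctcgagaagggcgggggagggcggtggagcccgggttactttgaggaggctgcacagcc

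Set per length of exon, the ligands stood far apart from each other. On the scale of CPM per kb of exon, Il34 was at 18.1 ± 8.19 (SD) in sham, 102 ± 17.8 (SD) in AKI_PBS and 37.6 ± 7.61 (SD) in AKI_PTPi_mEVs, and Csf1 at 1.44 ± 0.163 (SD), 3.89 ± 1.97 (SD) and 4.98 ± 1.11 (SD). The ratio of Il34 to Csf1 on this scale was 6.63, 11.7 and 20.9 in the sham libraries, 37.3, 14.5 and 40.8 in AKI_PBS, and 6.94, 8.01 and 7.84 in AKI_PTPi_mEVs. The ratio in each AKI_PBS library exceeded that in each AKI_PTPi_mEVs library, while sham overlapped both. The summed ligands per unit of receptor, both per kb of exon, came to 1.31 to 2.78 in sham, 38.9 to 53.2 in AKI_PBS and 11.3 to 17.2 in AKI_PTPi_mEVs, with no overlap between groups. These ratios compare transcripts in whole kidney, not proteins, and the exon lengths come from GENCODE M21, which need not be the annotation used for the counts.

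**Figure D2:**
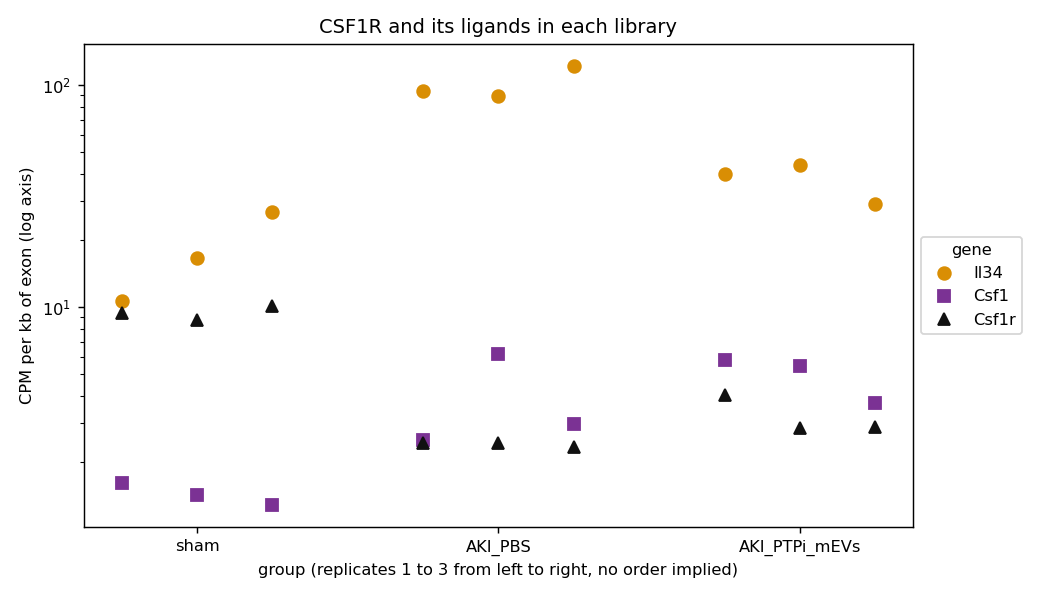
Il34, Csf1 and Csf1r in CPM per kb of exon (log axis) in each of the 9 libraries, by group. Il34 and Csf1r are closest in sham, where Csf1r is at 9.45, and furthest apart in AKI_PBS, where Il34 is at 102 and Csf1r at 2.42.

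Csf1r encodes the receptor itself, on which monocytes and macrophages depend for survival. Its level was 54.5, 50.5 and 58.6 CPM in sham, 14.2, 14.2 and 13.6 CPM in AKI_PBS, and 23.3, 16.5 and 16.7 CPM in AKI_PTPi_mEVs. No groups overlapped, and the AKI_PBS libraries lay within an SD of 0.321 CPM. After injury Csf1r fell by 74.3% (-1.96 ± 0.16 in log2 units, edgeR adjusted p = 1.38e-06). In AKI_PTPi_mEVs against sham it fell by 65.4% (-1.53 ± 0.16, edgeR adjusted p = 2.06e-04). It was higher in AKI_PTPi_mEVs than in AKI_PBS by 35.0% (0.43 ± 0.16, edgeR adjusted p = 0.041). That small difference was lost with library totals (0.33), with limma voom (0.42), in a fit of only these 2 groups (0.44), without any single AKI_PBS library (0.45, 0.44 and 0.42 without replicates 1, 2 and 3), without sham replicate 2 (0.45) and without AKI_PTPi_mEVs replicate 1 (0.26). Of the exon length of Csf1r 15.1% overlaps Hmgxb3 on the opposite strand, and the strand setting of the counting is not given in the sources used here. Hmgxb3, looked up for this overlap after the values of Csf1r were seen, was not called in any comparison (log2 fold change -0.28, -0.03 and -0.31) and held 19.5 to 36.3 CPM.

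Adgre1 encodes F4/80, the adhesion receptor by which resident macrophages of mice are usually recognised. It was close to the detection limit, with 21, 24 and 10 counts in the sham libraries, 3, 3 and 5 counts in AKI_PBS and 22, 9 and 7 counts in AKI_PTPi_mEVs. Scaled, sham held 2.06, 2.23 and 1.02 CPM, AKI_PBS 0.259, 0.257 and 0.442 CPM, and AKI_PTPi_mEVs 2.02, 0.982 and 0.769 CPM. The AKI_PBS libraries were below all others, and sham and AKI_PTPi_mEVs overlapped. Adgre1 fell by 2.44 ± 0.52 on the log2 scale in AKI_PBS against sham (edgeR adjusted p = 0.0016), but it had reached the filter's level in 0 AKI_PBS libraries, so it entered the test through the groups in which it was high. That level was 0.921 CPM. It was higher in AKI_PTPi_mEVs than in AKI_PBS (1.97 ± 0.54, edgeR adjusted p = 0.0090), a call lost without AKI_PTPi_mEVs replicate 1 (1.44, edgeR adjusted p = 0.064). In a fit of only these 2 groups, and with a stricter low-count filter, Adgre1 was not tested. Against sham, AKI_PTPi_mEVs was not called (-0.47, 95% interval -1.40 to 0.46).

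Cd68 encodes the lysosomal glycoprotein that marks phagocytes in tissue sections. Cd68 stood at 8.53, 7.44 and 4.47 CPM in sham, 50.9, 27.7 and 20.8 CPM in AKI_PBS, and 20.1, 20.9 and 19.6 CPM in AKI_PTPi_mEVs. Both injured groups lay above sham, and they overlapped, with AKI_PBS replicate 1 far above the rest. Cd68 rose 4.85-fold in AKI_PBS against sham (2.28 ± 0.31, edgeR adjusted p = 6.39e-05) and 2.95-fold in AKI_PTPi_mEVs against sham (1.56 ± 0.31, edgeR adjusted p = 0.0074). Between the injured groups it was just short of a call (-0.72 ± 0.29, edgeR adjusted p = 0.055). It was called lower there with DESeq2 (-0.72), library totals (-0.83), no low-count filter (-0.67), without AKI_PBS replicate 3 (-0.96) and without sham replicate 3 (-0.70), and it was -0.26 without AKI_PBS replicate 1. In AKI_PBS against sham Cd68 thus moved opposite to Csf1r. The ratio of Cd68 to Csf1r per kb of exon was 0.350 to 0.719 in sham, 7.01 to 16.5 in AKI_PBS and 3.96 to 5.81 in AKI_PTPi_mEVs.

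The upstream region of Cd68 is shown beside these values because it is the only other called gene of the 10 with a window taken from the promoter table. Windows on a chromosome barred beforehand were not taken, so the table may hold other called genes. The 250 bases before its start on the minus strand (chr11:69666171-69666420, GRCm38.p6, RefSeq) held matches, in capitals, to the PU.1 core 225 bases and to the AP-1 site 149 and 24 bases before the start. The PU.1 core is on the strand shown. The AP-1 pattern TGANTCA reads the same on both strands, and the letters matched on the strand shown are TGAGTCA. The first 30 bases after this start were found in 0 GENCODE M21 transcripts of Cd68, so these distances rest on RefSeq's start alone.
Cd68: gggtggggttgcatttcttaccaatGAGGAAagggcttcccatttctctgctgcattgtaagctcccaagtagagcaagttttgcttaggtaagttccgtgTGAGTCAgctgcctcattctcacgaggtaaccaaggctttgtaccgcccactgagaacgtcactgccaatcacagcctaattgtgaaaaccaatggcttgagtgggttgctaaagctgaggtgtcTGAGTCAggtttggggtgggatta

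C1qa, C1qb and C1qc encode the chains of C1q, the recognition subunit of the classical complement pathway, and lie side by side in the genome. C1qa was at 21.3, 20.4 and 10.7 CPM in sham, 16.8, 19.1 and 11.4 CPM in AKI_PBS, and 12.2, 8.73 and 13.6 CPM in AKI_PTPi_mEVs. C1qb was at 32.5, 30.9 and 15.5 CPM in sham, 22.0, 25.3 and 14.6 CPM in AKI_PBS, and 20.6, 18.2 and 17.9 CPM in AKI_PTPi_mEVs. For both genes the groups overlapped, and sham replicate 3 and AKI_PBS replicate 3 were the lowest of their groups. C1qc was at 2.35, 3.63 and 4.67 CPM in sham, 5.45, 8.49 and 3.62 CPM in AKI_PBS, and 5.05, 1.75 and 1.65 CPM in AKI_PTPi_mEVs. Here sham replicate 3 was the highest of its group, unlike for the other chains.

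None of the C1q genes was called in any comparison. In AKI_PBS against sham the log2 fold change was -0.15 for C1qa (95% interval -0.74 to 0.45), -0.35 for C1qb (-0.92 to 0.21) and 0.72 for C1qc (-0.21 to 1.66). Intervals of this width do not show that the levels were equal. C1qb was called lower without sham replicate 3 (-0.63, edgeR adjusted p = 0.031). In AKI_PTPi_mEVs against AKI_PBS the values were -0.45 for C1qa, -0.13 for C1qb and -1.03 for C1qc (edgeR adjusted p = 0.19, 0.71 and 0.068). C1qc was called lower there with DESeq2 (-1.04), with no low-count filter (-0.99), without AKI_PBS replicate 3 (-1.27) and without AKI_PTPi_mEVs replicate 1 (-1.77). In AKI_PTPi_mEVs against sham they were -0.60, -0.48 and -0.31 (edgeR adjusted p = 0.18, 0.25 and 0.71), and C1qc was at -1.05 without AKI_PTPi_mEVs replicate 1, still not called (edgeR adjusted p = 0.17). Per kb of exon, C1qc was the scarcest chain in every library, with 2.36% to 9.55% of the summed chains, C1qa 32.2% to 43.1% and C1qb 50.5% to 64.3%.

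The upstream regions of C1qb and C1qc are shown together because these neighbours are part of one cluster. They are 250 and 228 bases before the annotated genes on the minus strand (chr4:136886201-136886450 and chr4:136892937-136893164, GRCm38.p6, RefSeq). Capitals mark a PU.1 core 30 bases before the start of C1qb, and for C1qc a PU.1 core on the opposite strand 193 bases and a kappa-B match 41 bases before the start. Distances are to the start in the promoter table. For C1qc the annotated gene begins before that start, so the bases shown stop short of it and both matches lie nearer to their end. The first 30 bases after the start of C1qb were found in 0 of its GENCODE M21 transcripts, so its distance rests on RefSeq's start alone.
C1qb: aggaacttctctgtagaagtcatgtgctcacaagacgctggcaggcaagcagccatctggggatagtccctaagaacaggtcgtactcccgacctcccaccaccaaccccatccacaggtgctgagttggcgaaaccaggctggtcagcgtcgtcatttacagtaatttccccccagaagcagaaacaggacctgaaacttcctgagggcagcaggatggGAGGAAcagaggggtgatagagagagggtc
C1qc: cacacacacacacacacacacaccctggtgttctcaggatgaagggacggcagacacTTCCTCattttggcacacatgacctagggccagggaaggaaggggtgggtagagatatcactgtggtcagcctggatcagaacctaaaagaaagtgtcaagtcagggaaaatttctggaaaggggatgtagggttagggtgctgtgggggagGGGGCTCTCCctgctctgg

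Cd74 encodes the invariant chain, which fills the groove of class II molecules on their way to the endosome, and H2-Ab1 the beta chain of the class II molecule I-A. Cd74 was at 334, 311 and 168 CPM in sham, 118, 129 and 128 CPM in AKI_PBS, and 101, 61.6 and 122 CPM in AKI_PTPi_mEVs. H2-Ab1 was at 174, 181 and 105 CPM in sham, 78.8, 81.9 and 67.9 CPM in AKI_PBS, and 72.2, 71.3 and 86.8 CPM in AKI_PTPi_mEVs. Both were higher in every sham library than in any injured library, and the injured groups overlapped. Sham replicate 3 was the lowest sham library for both genes.

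Against sham, Cd74 fell by 53.9% in AKI_PBS (-1.12 ± 0.26, edgeR adjusted p = 0.0030) and fell by 65.0% in AKI_PTPi_mEVs (-1.51 ± 0.26, edgeR adjusted p = 0.0036). H2-Ab1 fell by 50.3% (-1.01 ± 0.19, edgeR adjusted p = 6.22e-04) and fell by 49.9% (-0.997 ± 0.189, edgeR adjusted p = 0.0053) in the same comparisons. Without sham replicate 3 the falls in AKI_PBS were -1.38 for Cd74 and -1.23 for H2-Ab1. Leaving out another library made them as small as -0.95 for Cd74 and -0.88 for H2-Ab1. Between the injured groups neither was called: Cd74 was at -0.40 (95% interval -0.96 to 0.17) and H2-Ab1 at 0.01 (-0.40 to 0.42). Both genes thus lay under sham in both injured groups.

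**Figure D3:**
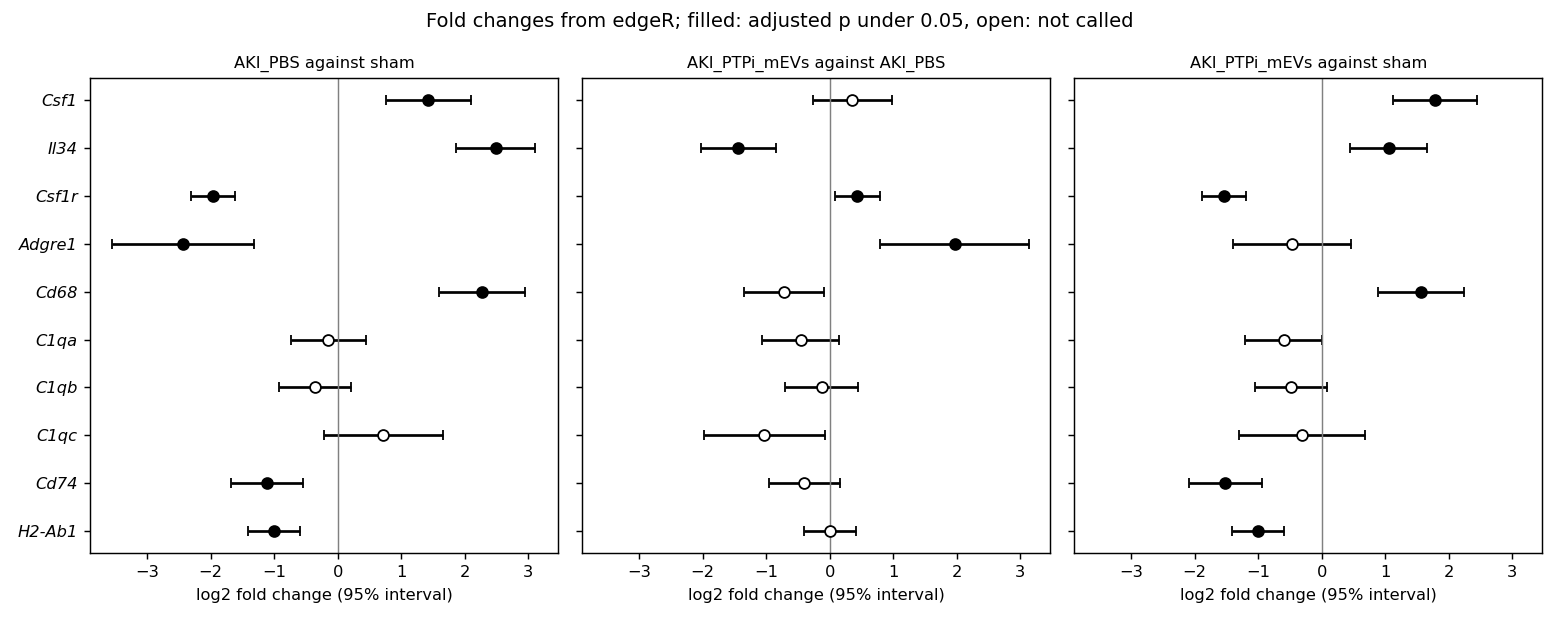
Log2 fold changes of the 10 genes with 95% intervals in the 3 comparisons, from edgeR; filled points were called and open points were not. Csf1r lies at -1.96 and -1.53 against sham, while Il34 goes from 2.49 in AKI_PBS to 1.05 in AKI_PTPi_mEVs.

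Other genes of the class II pathway were taken from a list of 16, of which 14 were tested. Of all genes, 55.7% were called in AKI_PBS against sham and 51.1% in AKI_PTPi_mEVs against AKI_PBS. In AKI_PTPi_mEVs against sham the share was 13.2%. These shares stand beside the counts of this list and of those below, and nothing is read from counts near them. In AKI_PBS against sham 3 rose and 6 fell, with a median of -0.72 beside 0.03 over all genes. H2-Aa, the alpha chain partner of H2-Ab1, fell by 1.53 ± 0.23 on the log2 scale and H2-Eb1, the I-E beta chain, by 1.45 ± 0.21. Ciita, the transactivator that switches class II genes on, fell by 2.48 ± 0.37, from 4.27 to 6.57 CPM in sham to 0.619 to 1.47 CPM in AKI_PBS. It met the filter through sham and AKI_PTPi_mEVs and not AKI_PBS, so its direction was partly fixed by the filter. The peptide-loading genes H2-DMa and H2-DMb1 fell by 0.75 ± 0.30 and 1.12 ± 0.30. Of the proteases that cut the invariant chain or antigens, Ctsl rose by 1.33 ± 0.17 and Lgmn by 0.38 ± 0.14, though both are also abundant in tubules.

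In AKI_PTPi_mEVs the genes of this pathway did not all lie at one level relative to sham. H2-Aa (-2.23 ± 0.23) and H2-Eb1 (-1.67 ± 0.22) were lower than in sham, as were Cd74 and H2-Ab1. H2-Aa was also lower than in AKI_PBS (-0.70 ± 0.23, edgeR adjusted p = 0.024). Ciita was higher than in AKI_PBS (2.32 ± 0.37) and not called against sham (-0.16 ± 0.31, edgeR adjusted p = 0.79). H2-DMa (1.09 ± 0.30) and H2-DMb1 (1.64 ± 0.30) were higher than in AKI_PBS and not called against sham (0.34 ± 0.29 and 0.52 ± 0.29). Over the list 5 were higher and 3 lower than in AKI_PBS, and 1 higher and 2 lower than in sham. H2-Ob reached the filter's level in 0 AKI_PBS and 0 AKI_PTPi_mEVs libraries, so its direction was fixed by the filter. Ciita did not meet the filter in AKI_PBS, so its higher level in AKI_PTPi_mEVs than there was partly fixed by it too.

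**Figure D4:**
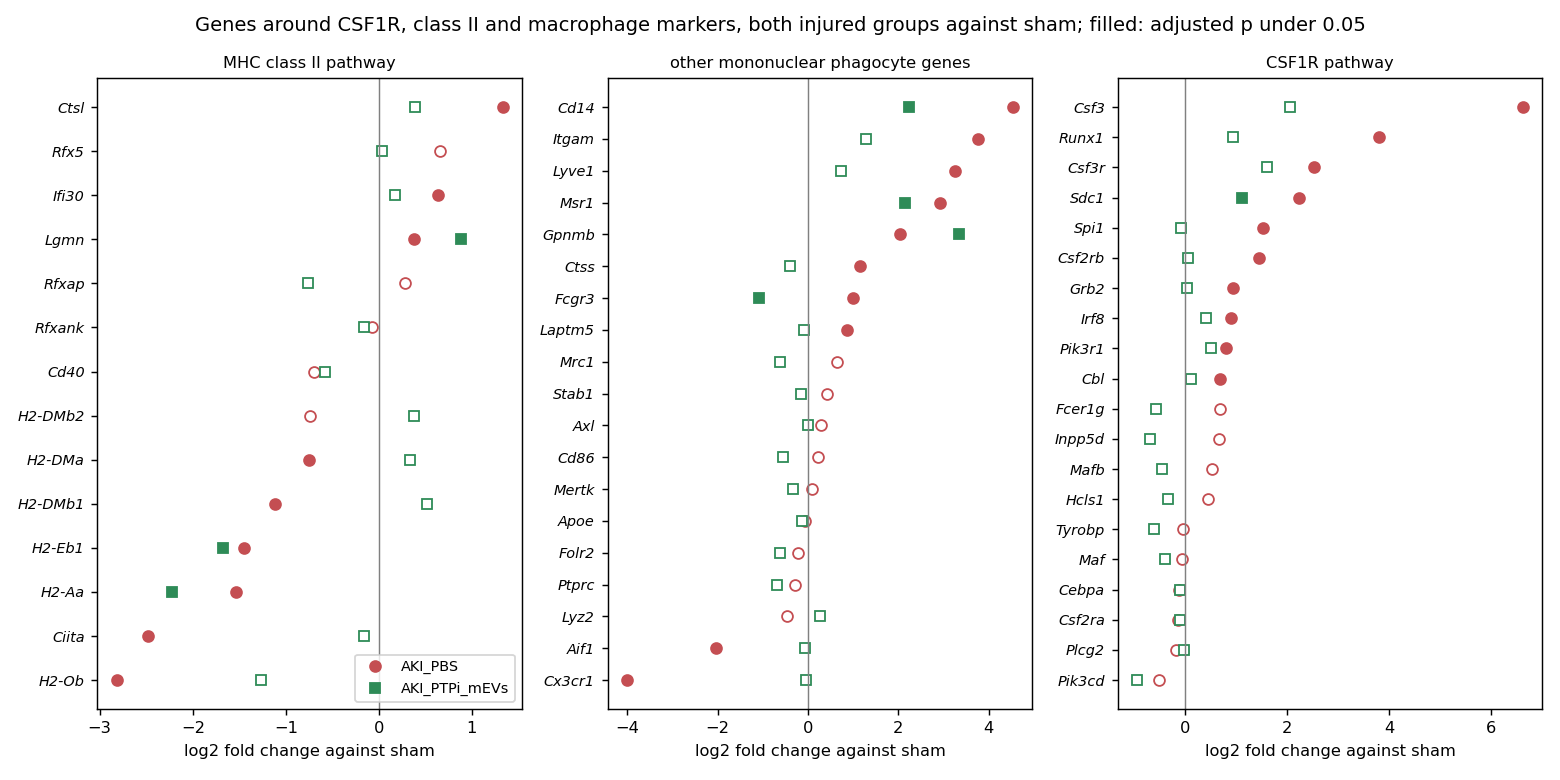
Log2 fold changes against sham of tested genes of the class II, mononuclear phagocyte and CSF1R pathway lists, for AKI_PBS (circles) and AKI_PTPi_mEVs (squares); filled symbols were called. Ciita and Cx3cr1, which did not meet the filter in AKI_PBS, lie far to the left there and near 0 in AKI_PTPi_mEVs. H2-Aa and H2-Eb1 lie to the left in both, and the position of Csf3 rests on 1 sham count.

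Further genes of mononuclear phagocytes went in opposite directions in AKI_PBS against sham. Of 25 listed, 19 were tested, of which 8 rose and 2 fell (median 0.42), where 55.7% of all genes were called. Cx3cr1, the fractalkine receptor of resident kidney macrophages and dendritic cells, held 2.65, 3.91 and 0.914 CPM in sham, 0.173, 0.172 and 0.0884 CPM in AKI_PBS, and 3.03, 1.75 and 2.42 CPM in AKI_PTPi_mEVs. It was lower in all AKI_PBS libraries than in any other (-4.01 ± 0.63 against sham, edgeR adjusted p = 1.79e-04). Aif1, which encodes IBA1, fell with it (-2.04 ± 0.52). Cd14, a co-receptor for endotoxin that injured tubules also make, rose by 4.54 ± 0.33, and Itgam, the integrin CD11b of monocytes and neutrophils, by 3.75 ± 0.51. Ctss, the protease that trims the invariant chain in phagocytes, rose by 1.15 ± 0.27. Itgam, Lyve1, Gpnmb, Msr1, Cx3cr1 and Aif1 each failed the filter's level in all libraries of at least 1 group, so the counts for this list rest partly on how genes were admitted.

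In AKI_PTPi_mEVs against AKI_PBS 4 genes of this list were higher and 7 lower (median -0.58), where 51.1% of all genes were called. Cx3cr1 (3.95 ± 0.64), Aif1 (1.98 ± 0.52), Gpnmb (1.31 ± 0.41) and Lyz2 (0.72 ± 0.21) were higher. Cd14 (-2.31 ± 0.30), Fcgr3, an Fc receptor for IgG (-2.10 ± 0.31), Itgam (-2.47 ± 0.45) and Lyve1 (-2.53 ± 0.44) were lower. Cx3cr1 met the filter in AKI_PTPi_mEVs alone, and Itgam and Lyve1 in AKI_PBS alone. Their directions here were thus partly fixed by the filter, and the counts for this list rest partly on how genes were admitted. Aif1 met the filter in sham alone. Against sham 3 were higher and 1 lower: Cd14 at 2.23 ± 0.31, Gpnmb, a glycoprotein of lipid-laden and repair-type macrophages, at 3.35 ± 0.51, Msr1 at 2.15 ± 0.58, and Fcgr3 at -1.09 ± 0.31. Gpnmb and Msr1 met the filter in both injured groups but not in sham, so their rises against sham were partly fixed by it. Gpnmb was at 3.58, 3.06 and 6.60 CPM in AKI_PTPi_mEVs, above its AKI_PBS range of 1.21 to 2.83 CPM. Ptprc, which encodes the pan-leukocyte antigen CD45, was not called in any comparison (-0.29, -0.40 and -0.69).

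Around the receptor, 20 of 22 listed genes of CSF1R signalling, macrophage transcription and the other colony-stimulating factors were tested. In AKI_PBS against sham 10 rose and none fell (median 0.69), where 27.8% of all genes were called higher and 27.9% lower. Sdc1, a syndecan that binds IL-34, rose by 2.24 ± 0.22, Runx1, a haematopoietic transcription factor, by 3.80 ± 0.45, and Grb2, an adaptor of receptor kinases, by 0.95 ± 0.14. Spi1, which encodes PU.1, rose by 1.54 ± 0.48, from 0.784 to 1.83 CPM to 2.85 to 5.21 CPM. Csf3, the granulocyte factor, held 0 to 0.102 CPM in sham and 2.07 to 8.49 CPM in AKI_PBS, and Csf2 had 0 counts in all libraries. Csf3 and its receptor gene Csf3r reached the filter's level in 0 sham libraries, so their rise was partly fixed by the filter. Spi1 met the filter in AKI_PBS alone and Runx1 in both injured groups but not sham, so their rises were partly fixed too. The counts for this list therefore rest partly on how genes were admitted. In AKI_PTPi_mEVs 11 were lower than in AKI_PBS and none was higher (median -0.85), among them Runx1 (-2.85 ± 0.42) and Sdc1 (-1.13 ± 0.21). Against sham 1 was called, Sdc1 (1.11 ± 0.22), which was higher.

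Genes that act with C1q were listed as 9 complement partners and receptors, all tested. In AKI_PBS against sham 5 fell and 1 rose (median -0.82), beside C1q genes that were not called. Of all genes 55.7% were called there. C1ra and C1s1, the proteases of the C1 complex, fell by 0.95 ± 0.20 and 0.86 ± 0.27, and Serping1, their inhibitor, by 1.41 ± 0.29. Cd93, a receptor-like protein of endothelium, rose by 1.42 ± 0.25. In AKI_PTPi_mEVs against AKI_PBS 6 were higher and 1 lower. C3, the central component, was at 44.3, 130 and 73.5 CPM in AKI_PTPi_mEVs, 22.7, 10.8 and 6.54 CPM in AKI_PBS and 6.08, 7.07 and 4.78 CPM in sham. It was higher in AKI_PTPi_mEVs than in AKI_PBS by 2.63 ± 0.45, and C4b by 1.74 ± 0.34. Against sham 3 were higher and 1 lower.

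Beside Cd68, 12 other lysosomal genes were tested, and 3 rose and 4 fell in AKI_PBS against sham (median 0.02). That is near the 55.7% of all genes called there. Scarb2, a lysosomal membrane protein, rose by 1.56 ± 0.14, Ctsd, a lysosomal protease, by 0.99 ± 0.15, while Neu1, a sialidase, fell by 1.30 ± 0.15. In AKI_PTPi_mEVs 6 were higher and 2 lower than in AKI_PBS, and 4 were higher than in sham. The shares of all genes called were 51.1% and 13.2% in these comparisons. Monocyte genes were 8, of which 6 were tested, with 2 higher and 1 lower in AKI_PBS against sham. The 2 higher genes, Chil3 and F13a1, were under the filter's level in all sham libraries, so their direction was partly fixed by the filter. Chil3, a chitinase-like gene of inflammatory monocytes and neutrophils, was at 0 to 0.279 CPM in sham, 8.47 to 13.4 CPM in AKI_PBS and 1.75 to 1.93 CPM in AKI_PTPi_mEVs. F13a1, admitted through AKI_PBS alone, had a log2 fold change of 3.19 ± 0.43 in AKI_PBS against sham and of -1.83 ± 0.37 in AKI_PTPi_mEVs against AKI_PBS. In the latter comparison 2 monocyte genes were higher and 3 lower, and against sham 1 was higher and 1 lower.

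Markers of other cells moved with the groups, and their part in the changes above was not tested. The summed level of 9 neutrophil markers was 0.711 to 1.27 CPM in sham, with S100a8, Retnlg and Mmp8 at 0, then 25.6 to 48.8 CPM in AKI_PBS and 2.20 to 2.97 CPM in AKI_PTPi_mEVs, where Ngp was at 0. All 8 tested rose in AKI_PBS against sham, but each was under the filter's level in all sham libraries. The 7 B cell markers summed to 11.1 to 18.8 CPM in sham, 9.72 to 12.95 CPM in AKI_PBS and 8.19 to 15.6 CPM in AKI_PTPi_mEVs, where Pax5 was at 0. Most of this was Ebf1, at 5.72 to 13.2 CPM over all libraries, and of the 2 tested Cd79b was called lower in AKI_PBS (-1.68 ± 0.45) and Ebf1 was not called (-0.16). Cd79b had met the filter through sham and AKI_PTPi_mEVs. The 8 dendritic cell markers summed to 16.2 to 22.1, 17.2 to 20.9 and 12.3 to 16.9 CPM in sham, AKI_PBS and AKI_PTPi_mEVs. Most of this was Zbtb46, with means of 12.3, 14.5 and 8.67 CPM, so the sums say little of the other markers. Of the 5 tested, 3 were called lower in AKI_PBS: Cd209a, Clec9a and Itgax. None of these 3 met the filter in AKI_PBS, so their direction was partly fixed by it, and Batf3 (0.81) and Zbtb46 (0.24) were not called. Xcr1 was at 0 in AKI_PBS. The 7 T cell markers summed to 6.50 to 8.62, 3.27 to 5.40 and 3.71 to 5.83 CPM, Cd3d was at 0 in AKI_PTPi_mEVs, and Cd8a, which was under the filter's level in all AKI_PBS libraries and so entered through the other groups, had a log2 fold change of -3.26 ± 0.46 in AKI_PBS against sham.

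Markers of kidney tissue also shifted: in AKI_PBS against sham 7 of 8 proximal tubule markers fell and 8 of 8 injured tubule markers rose. The 8 proximal tubule markers summed to 3790 to 6533 CPM in AKI_PBS and 8603 to 12714 CPM in AKI_PTPi_mEVs, of which the former lay under the sham range given above and the latter overlapped it. The 8 injured tubule markers summed to 1581 to 2003 CPM in sham, 9289 to 13704 CPM in AKI_PBS and 6569 to 11905 CPM in AKI_PTPi_mEVs. Most of each sum was Spp1, with means of 1351, 7822 and 6443 CPM. Taken singly, 5 of the 8 were called lower in AKI_PTPi_mEVs than in AKI_PBS, 0 higher and 3 not called. The 8 endothelial markers were at 395 to 500, 295 to 474 and 260 to 472 CPM, and the 7 fibroblast and mesangial markers at 176 to 287, 191 to 240 and 188 to 418 CPM, with overlap between all groups. The 7 red blood cell markers were at 150 to 186 CPM in sham, 120 to 263 CPM in AKI_PBS and 61.1 to 85.3 CPM in AKI_PTPi_mEVs. These sums mix directions. In AKI_PBS against sham 2 endothelial markers were called higher and 2 lower, and 1 fibroblast or mesangial marker each way. Of the 6 red blood cell markers tested, Hba-a2 was called higher (0.69 ± 0.28) and Slc4a1 lower (-3.49 ± 0.26). The other globin genes Hba-a1 (0.63), Hbb-bs (0.95) and Hbb-bt (0.87) were also above sham but not called, nor was Alas2 (0.22). Slc4a1 held 55.3 to 62.3 CPM in sham and 3.53 to 6.78 CPM in AKI_PBS, so the sum does not follow the globin genes. Whether tubules, macrophages or other cells held the transcripts of the 10 genes was not tested.

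Ordered by mean CPM per kb of exon, Cd74 (161 ± 53.4, SD) was the most abundant of the 10 genes in sham, then H2-Ab1 (59.7 ± 16.2, SD), C1qb (24.2 ± 8.61, SD), Il34 (18.1), C1qa (16.8 ± 5.65, SD), Csf1r (9.45), Cd68 (5.42 ± 1.67, SD), C1qc (1.84 ± 0.602, SD), Csf1 (1.44) and Adgre1 (0.546 ± 0.203, SD). The ranges of C1qb, Il34 and C1qa overlapped, as did those of C1qc and Csf1. Within each sham library, though, C1qb (29.9, 28.4 and 14.3) was above C1qa (20.4, 19.6 and 10.3). In AKI_PBS Il34 (102) was first, above Cd74 (74.4 ± 3.71, SD), and Csf1r (2.42) was ninth. Csf1 was above Csf1r in every AKI_PBS library, while C1qc (1.88 to 4.40) lay on both sides of it. In AKI_PTPi_mEVs Cd74 (56.5 ± 18.2, SD) was again first, before Il34 (37.6) and H2-Ab1 (29.9 ± 3.40, SD), and the first pair overlapped. Adgre1 was last in all 3 groups.

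The genes whose pattern was most like that of a ligand, of the receptor or of C1qa were found by the root-mean-square difference of centred log2 CPM over the 9 libraries among 11326 genes. For Il34 these were Inava, Fjx1 and Tuba1c, with differences of 0.26, 0.28 and 0.31, where the median gene differed by 1.14. For Csf1 they were Mal2, Golm1 and Mthfd2 (0.31, 0.35 and 0.35; median 0.88). For Csf1r they were Irx1, Cyp51 and Ggct (0.22, 0.22 and 0.23; median 0.92). For C1qa they were Ttc28, Tshz2 and Dlg3 (0.17, 0.20 and 0.21; median 0.58).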

How the data were processed

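Counts per gene were deposited by the authors as whole numbers; per the submitters' processing notes, STAR and HTSeq made them (no versions stated). Those notes name GRCh38.p14, a human build, although all identifiers are mouse Ensembl ones, so no gene coordinates are given. Promoter coordinates are RefSeq's (GRCm38.p6). Of the 10 genes 4 were matched, after windows on a chromosome barred beforehand were left out. Libraries were made from total kidney RNA with a Tn5-based kit, per the labels' protocols. Annotation, filters and strand setting: not given in the sources used here. Of 56923 identifiers 52073 got a symbol after the version was dropped, and 0 columns were left unmapped.

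In R 4.3.3, edgeR 4.0.16 was run with filterByExpr, TMM factors and robust glmQLFit on all 9 libraries with a mean per group, and glmQLFTest compared the groups. SEs are the absolute log2 fold change divided by the root of F. Exon lengths are the union of exons in GENCODE M21. Alternatives used limma 3.58.1 and DESeq2 1.42.0. The fit was also run on simulated counts with few changed genes and the same spread for every gene. These data differ from that setting, so nothing about the calls here is read from it. The 10 genes and the 15 other lists were chosen with earlier results of these data known. Named genes are the 10, from each other list and comparison up to 4 called genes of smallest adjusted p (up to 2 where none was called), and the 3 genes most alike to each of Csf1, Il34, Csf1r and C1qa (log2 CPM averaging 2 or more, prior count 2; Gm and Rik models left out). Further genes (Aif1, Cd3d, Csf2, Ctss, H2-Ob, Lyz2, Ngp, Pax5, Ptprc, Retnlg, Spi1, Xcr1, Hmgxb3 and Ptpn1) were chosen after their values were seen. Counting error, library total and the absence of molecular identifiers limit precision for genes with few counts.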

Additional observations from a re-analysis of the deposited data

How the results depend on the processing

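In all, 30 fold changes of single genes were recomputed, giving 506 values under alternatives. Of these, 480 kept their side of the threshold, 14 lost a call, 12 gained one and 0 reversed a call. Direction was compared only where a gene was called in either fit. The sign of uncalled changes could differ, as for C1qa in AKI_PBS against sham (-0.41 to 0.04). C1qb in AKI_PTPi_mEVs against AKI_PBS (-0.32 to 0.05) also crossed 0. The lost and gained calls are given with the genes above, apart from those with the replicate number as a block. Counts of the 10 genes changed by more than 1.5 times only in AKI_PTPi_mEVs against AKI_PBS, from 3 to 5 with DESeq2, to 5 with no low-count filter and to 1 in a fit of only the groups compared, where Csf1r lost its call and Adgre1 did not pass the filter. Leaving out a library gave 7 to 8, 2 to 4 and 5 to 6 in the 3 comparisons. Over all genes, a log2 fold change of at least 1 left 5227 of 9488, 4570 of 8711 and 987 of 2252 calls, and leaving out a library gave 878 to 3395 in AKI_PTPi_mEVs against sham. Scaling by library totals alone moved the median of all genes by -0.11 in AKI_PTPi_mEVs against AKI_PBS, where Csf1r lost its call and Cd68 gained one.

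The labels number the libraries but name no shared animal or batch, and same-numbered libraries did not deviate together (correlations of deviations across genes -0.19 to 0.11 over 9 pairs, against -0.17 to 0.15 over 18 pairs of different number). With the replicate block 7, 3 and 6 of the 10 genes and 9213, 8491 and 2050 of all genes were called; Csf1r lost its call in AKI_PTPi_mEVs against AKI_PBS (0.42) and Cd68 gained one (-0.62). Adgre1 (11 counts over the AKI_PBS group) was not tested with the stricter filter or, in AKI_PTPi_mEVs against AKI_PBS, in the fit of only those groups, and depth limits it and C1qc most.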
